A study of Mus musculus with 72 samples.

Results

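The 7 genes described here mark the dopamine-receptive neurons of the striatum and were followed through 72 libraries of mouse brain RNA: Drd1, Drd2, Adora2a, Gpr6, Ppp1r1b, Pde10a and Rasd2. They are the 7 of 55401 genes in the count table whose identifier carries 1 of these symbols in the tables of the morphine comparisons, and all 7 passed the filter on low counts in every fit. The lowest count of a member in any library was 30, for Gpr6, and the highest was 4285, for Pde10a. The rows were found by these symbols only, but the 7 genes were chosen with earlier results of these data known.

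Striatal projection neurons receive dopamine from the midbrain and fall into a direct pathway class, which carries the D1 dopamine receptor, and an indirect pathway class, which carries the D2 receptor together with the adenosine receptor encoded by Adora2a. D1 and adenosine receptors of this kind raise cAMP and D2 receptors lower it, and the kinase that cAMP activates phosphorylates DARPP-32, a phosphatase inhibitor abundant in both classes. Opioids act on this circuit in part through midbrain neurons that release dopamine and in part through opioid receptors on the striatal neurons themselves.

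The pups were C57Bl/6NTac mice, and total RNA came from the right hemisphere of the brain, not from dissected striatum (the submitters' text also speaks of cortex). PND1 pups were exposed before birth only, through an osmotic minipump in the dam with saline or with morphine (10 mg/kg/day), and were collected on day 1. PND14 pups received injections of saline or of morphine (10 mg/kg) after birth, given 2 times daily up to collection on day 14, 6 h after the last injection. The 3-Tri pups had the minipump exposure followed by the injections. PND1 held 4 morphine and 7 saline libraries labelled female and 6 morphine and 7 saline libraries labelled male, and each of the 4 sex and drug groups of PND14 and of 3-Tri held 6. Each library was a single pup, and what the pups of a group share in litter is not given, but in PND14 and in 3-Tri the pups of each drug carried 2 ID numbers that no pup of the other drug carried.

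Total counts per library ran from 20742862 to 27333125 in PND1, from 4407544 to 21404819 in PND14 and from 3113919 to 19938980 in 3-Tri. Xist or the Y-linked gene Ddx3y went against the labelled sex in 4 of 24 libraries of PND1, 0 of PND14 and 12 of 3-Tri, so sex is given here as labelled and the sexes were also joined. The authors' own tables left out PND14 female morphine replicate 4 and 3-Tri male saline replicate 1, the 2 shallowest libraries. In hemisphere RNA, fewer striatal neurons in the sample and less RNA per neuron cannot be told apart. Levels are CPM, counts scaled by TMM-normalized library size over the 72 libraries.

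The regions around annotated transcription starts are shown for the receptor genes Drd1, Drd2 and Gpr6, because these are the members compared as direct and indirect pathway genes below and their starts differ in the motifs they hold. Drd1 and Pde10a have more than 1 start in the table, and for Drd1 the outermost is shown. Each runs from 250 bases before to 50 bases after a RefSeq start on GRCm38.p6 and is written 5′ to 3′ on the gene's strand, with capitals marking a GC box (GGGCGG) or a cAMP response element (TGACGTCA) on either strand.
Drd1, chr13:54055609-54055908, minus strand: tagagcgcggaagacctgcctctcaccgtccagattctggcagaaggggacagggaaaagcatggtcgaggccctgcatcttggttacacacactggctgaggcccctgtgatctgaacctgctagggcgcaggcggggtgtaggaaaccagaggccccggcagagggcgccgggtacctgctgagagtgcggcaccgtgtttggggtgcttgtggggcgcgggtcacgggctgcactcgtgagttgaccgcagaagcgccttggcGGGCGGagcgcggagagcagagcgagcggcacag
Drd2, chr9:49340153-49340452, plus strand: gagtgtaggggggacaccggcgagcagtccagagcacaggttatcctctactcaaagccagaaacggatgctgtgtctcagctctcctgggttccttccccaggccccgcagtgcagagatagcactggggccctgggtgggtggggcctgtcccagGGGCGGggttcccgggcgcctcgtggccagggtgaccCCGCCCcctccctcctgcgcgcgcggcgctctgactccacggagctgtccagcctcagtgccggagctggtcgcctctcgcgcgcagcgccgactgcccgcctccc
Gpr6, chr10:41072241-41072540, minus strand: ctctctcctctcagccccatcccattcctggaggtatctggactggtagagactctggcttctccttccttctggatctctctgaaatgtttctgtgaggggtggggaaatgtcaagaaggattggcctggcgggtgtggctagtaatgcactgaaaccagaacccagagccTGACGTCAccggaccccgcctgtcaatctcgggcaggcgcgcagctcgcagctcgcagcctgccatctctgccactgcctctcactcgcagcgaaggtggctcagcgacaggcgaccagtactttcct

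The Gpr6 region held a full cAMP response element 78 bases before the start, a sequence found in 1.79% of the 32851 mouse regions of this length. The element contains TGACG on both strands, and 20.8% of the regions hold TGACG at least 1 time. The Drd2 region held GC boxes 93 and 56 bases before its start, and the Drd1 region shown held a GC box 16 bases after its start (its other region held 1 at 133 bases before), a motif present in 35.7% of the regions. TATAAA, present in 13.6% of the regions, was not found in any of the members' regions. Rasd2 and Pde10a also had regions in the table, and Adora2a and Ppp1r1b did not. Drd1 is on chromosome 13 (54051183 to 54055705), Drd2 on chromosome 9 (49340627 to 49408177), Adora2a on chromosome 10 (75316877 to 75334784) and Gpr6 on the same chromosome (41069977 to 41072285). Ppp1r1b is on chromosome 11 (98348404 to 98357796), Pde10a on chromosome 17 (8525372 to 8986648) and Rasd2 on chromosome 8 (75213944 to 75224113), all on mm10 in GENCODE M21. Ppp1r1b overlaps the antisense transcript 1700003D09Rik over 559 exon bases, and with the counting strand not stated in those sources its level is uncertain to that extent.

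Levels were compared between members per kb of exon, as CPM/kb with the SD over saline pups. At PND1 (n = 14) Pde10a, the cAMP and cGMP phosphodiesterase of striatal neurons, was highest at 9.58 ± 1.14 CPM/kb. Ppp1r1b, which encodes DARPP-32, followed at 7.73 ± 1.30, and was below Pde10a in 13 of 14 libraries. Adora2a (4.67 ± 0.735) and Drd2 (4.27 ± 0.613) had overlapping ranges. The same held for Rasd2, a small GTPase also called Rhes, at 2.71 ± 0.317 and Drd1 at 2.46 ± 0.428, where Rasd2 was above Drd1 in 9 of 14 libraries. Gpr6, an orphan receptor of indirect pathway neurons, was lowest at 1.13 ± 0.228, and its range lay below that of Drd1.

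By PND14 the order had changed. In saline pups (n = 12) Ppp1r1b led at 44.1 ± 4.90 CPM/kb and Rasd2 was next at 30.1 ± 2.27, above Pde10a (17.0 ± 1.37) in 12 of 12 libraries with no overlap. Adora2a stood at 14.8 ± 1.55, Drd2 at 9.36 ± 0.873, Drd1 at 8.08 ± 0.905 and Gpr6 at 6.52 ± 0.724. The ranges of Drd2 and Drd1 overlapped, with Drd2 the higher in 11 of 12 libraries, and those of Drd1 and Gpr6 overlapped as well.

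**Figure D1:**
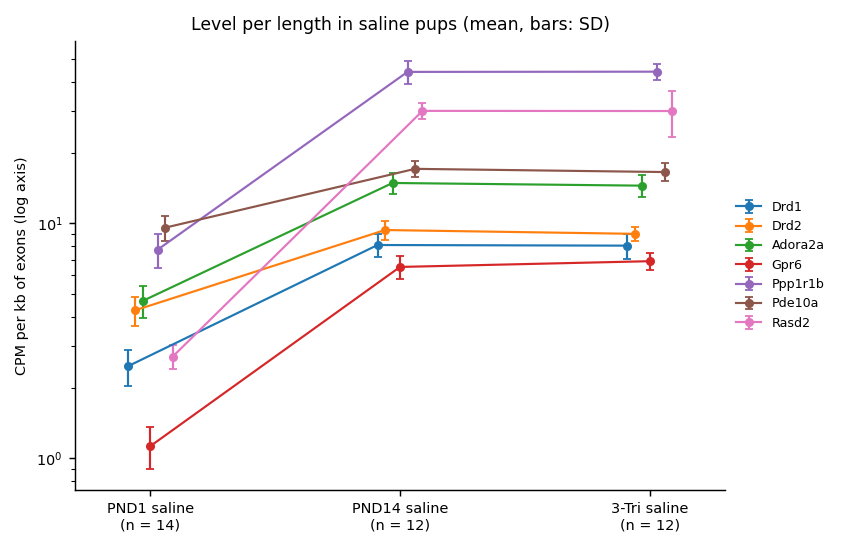
Mean level per length, in CPM per kb of exons on a log axis, of the 7 members in saline pups of each window, with bars of 1 SD. Every member was higher in PND14 than in PND1, and Rasd2 moved from 2.71 to 30.1 CPM/kb, passing Pde10a, Adora2a and Drd2.

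All 7 members rose between PND1 and PND14 saline pups in edgeR's quasi-likelihood test with Benjamini-Hochberg adjustment, in which 41.7% of 22010 genes were called higher and 84.9% in either direction. The window, the age and the sequencing depth cannot be told apart in this comparison. The change was largest for Rasd2, with a log2FC of 3.47 ± 0.0675 (SE, adjusted p = 2.39e-54). Rasd2 rose from a median of 8.55 CPM (6.93 to 10.7) in 14 PND1 saline libraries to a median of 94.7 CPM (84.1 to 111.6) in 12 PND14 saline libraries.

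Gpr6 (log2FC 2.54 ± 0.0722) and Ppp1r1b (2.51 ± 0.0663) rose by like amounts. Ppp1r1b went from a median of 22.7 CPM (17.3 to 29.4) to 128.2 CPM (96.1 to 146.5), and Gpr6 from 1.96 CPM (1.45 to 2.97) to 11.7 CPM (9.31 to 13.8). No PND1 saline library reached the lowest PND14 saline library for either gene. The dopamine and adenosine receptors rose less, with a log2FC of 1.72 ± 0.0690 for Drd1, 1.67 ± 0.0629 for Adora2a and 1.13 ± 0.0540 for Drd2. Pde10a, already the most abundant at PND1, rose least (log2FC 0.83 ± 0.0520, adjusted p = 4.01e-24), from a median of 122.0 CPM (91.0 to 151.6) to 226.8 CPM (180.1 to 234.6). The median change over the members was 1.72, beside -0.02 over all genes tested.

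In morphine pups the same comparison of windows gave 7 of 7 members higher, where 41.8% of genes were called higher and 83.5% in either direction, with log2FC from 0.75 (Pde10a) to 3.44 (Rasd2). Drd1 rose more than Drd2, and per kb Drd2 had the higher mean in both windows. The log2 ratio of Drd1 to Drd2 CPM, a within-library value that is not per length, was -0.20 ± 0.24 (SD) over the 24 PND1 libraries, 0.29 ± 0.14 over those of PND14 and 0.34 ± 0.15 over those of 3-Tri.

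Among 25 other genes of striatal projection neurons, 24 were tested and 16 rose and 7 fell between the saline groups, with a median log2FC of 0.85, in a comparison where 41.7% of all genes rose and 84.9% were called in either direction. Scn4b, a sodium channel subunit, had a log2FC of 5.99 ± 0.0719, larger than that of any member. Sp9, a transcription factor of indirect pathway neurons, fell by 0.31 on the log2 scale (SE 0.0563). Of 23 genes for dopamine signal transduction, 16 rose and 6 fell, with a median of 0.40.

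The 3-Tri saline pups, which had a saline minipump before birth, were compared with PND14 saline pups. No member was called by edgeR, in a comparison where 0% of genes were called and 723 had an unadjusted p under 0.05 (3 called in DESeq2). The 7 log2FC lay between -0.06 (Drd2) and 0.06 (Gpr6) with SEs of 0.0542 to 0.0690. Labelled sex made no called difference to a member in any window, where 4.73% of genes were called in PND1, 0.107% in PND14 and 0% in 3-Tri. In 3-Tri the sex genes of 12 of 24 libraries went against the label, so this comparison cannot decide whether sex mattered there. In PND1 those of 4 of 24 did. The smallest unadjusted p values for labelled females against males were 0.0237 for Pde10a in PND14 (log2FC -0.11), 0.0399 for Drd2 in 3-Tri (-0.09) and 0.0435 for Gpr6 in PND1 (0.22), and their adjusted p values in edgeR were 0.979, 1.0 and 0.213.

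**Figure D2:**
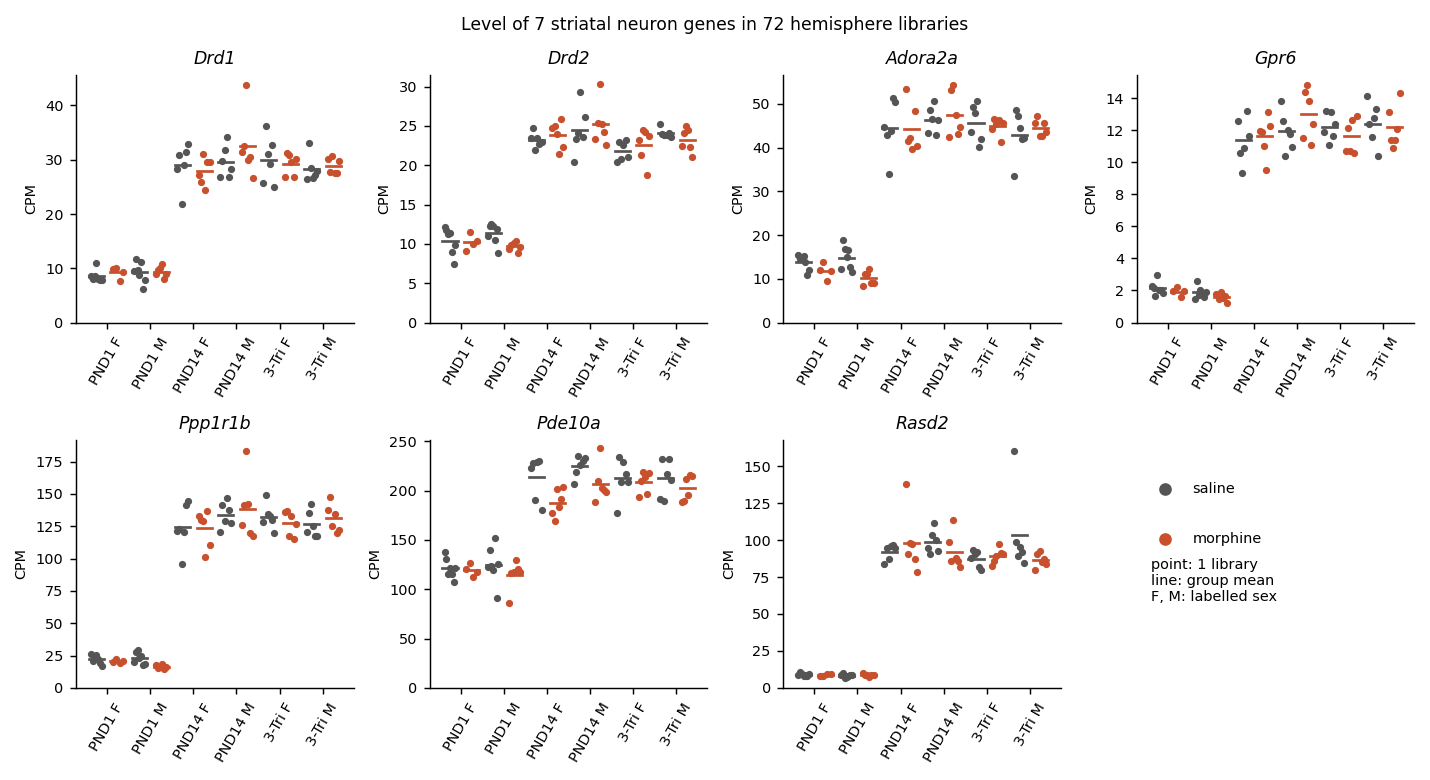
CPM of each member in each of the 72 libraries (points) with the group mean (line), by window, labelled sex and drug, each axis starting at 0. Adora2a and Ppp1r1b show lower morphine points in PND1 males, and Rasd2 shows 1 saline library of 3-Tri at 160.2 CPM.

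The question for PND1 was whether morphine before birth changed these genes. In labelled males Adora2a and Ppp1r1b were lower after morphine, 2 of 7 members called, in a comparison where 14.4% of 21714 genes were called and 8.08% were called lower. Adora2a, the adenosine receptor gene of indirect pathway neurons, lay at a median of 10.0 CPM (8.47 to 12.2) in 6 morphine libraries and of 15.1 CPM (11.6 to 18.8) in 7 saline libraries. Of the morphine libraries, 5 of 6 were below the lowest saline library, and the groups overlapped through morphine replicate 8. The log2FC was -0.55 ± 0.115 (SE, adjusted p = 0.00273, edgeR).

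Ppp1r1b lay at a median of 15.9 CPM (14.8 to 18.4) after morphine and of 23.4 CPM (17.3 to 29.4) after saline. Of the morphine libraries, 4 of 6 were below the lowest saline library and 6 of 6 were below the saline median. The log2FC was -0.50 ± 0.105 (SE, adjusted p = 0.00277, edgeR). Adora2a ranked 460 and Ppp1r1b 474 by p among the genes tested.

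The other members of PND1 males were not called. Drd2 had a log2FC of -0.23 ± 0.0963 (adjusted p = 0.107, edgeR), with a median of 9.75 CPM (8.80 to 10.4) after morphine and 11.9 CPM (8.84 to 12.6) after saline. Without saline replicate 14 its log2FC was -0.29 (adjusted p = 0.0327, edgeR), so whether Drd2 was called depended on that library. Gpr6 had a log2FC of -0.23 ± 0.143 (adjusted p = 0.282, edgeR), at a median of 1.59 CPM (1.24 to 1.91) against 1.86 CPM (1.45 to 2.62). Pde10a had -0.12 ± 0.0868, with 1 morphine library at 86.1 CPM and the other 5 between 116.9 and 129.5. Drd1, the direct pathway receptor, had 0.01 ± 0.112, at a median of 9.30 CPM (7.97 to 10.8) after morphine and 9.53 CPM (6.26 to 11.8) after saline. Rasd2 had 0.08 ± 0.0853, and the groups overlapped for both genes over most of their range.

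In labelled females of PND1 no member was called in a comparison where 0% of genes were called by edgeR and 2547 had an unadjusted p under 0.05 (43 called higher and 73 lower in DESeq2). The 4 morphine libraries had Adora2a at 12.03, 13.9, 9.53 and 11.8 CPM, and the 7 saline libraries had a median of 14.6 CPM (10.9 to 15.4). The groups overlapped, and the log2FC was -0.23 ± 0.129 (adjusted p = 0.508, edgeR). Ppp1r1b was at 20.4, 22.2, 19.3 and 20.8 CPM after morphine, inside the saline range of 17.3 to 26.4 CPM (log2FC -0.11 ± 0.117, adjusted p = 0.774, edgeR). The male minus female difference of the morphine effect was -0.39 ± 0.157 for Ppp1r1b (unadjusted p = 0.0181) and -0.32 ± 0.172 for Adora2a (0.0732), each with an adjusted p of 0.871 in edgeR, where 0% of genes were called. A difference between the labelled sexes was therefore not shown.

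With the sexes joined, Adora2a (log2FC -0.39 ± 0.0863, adjusted p = 0.00342) and Ppp1r1b (-0.30 ± 0.0789, adjusted p = 0.0102) were lower after morphine in edgeR, where 16.8% of genes were called and 9.43% were called lower. Correcting for the GC content and length of genes ended both joined calls (adjusted p = 0.0597 and 0.0879) and left those in males at -0.38 for each gene (adjusted p = 0.0482 and 0.0250, edgeR). Leaving out each library in turn ended neither call, in males or joined.

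**Figure D3:**
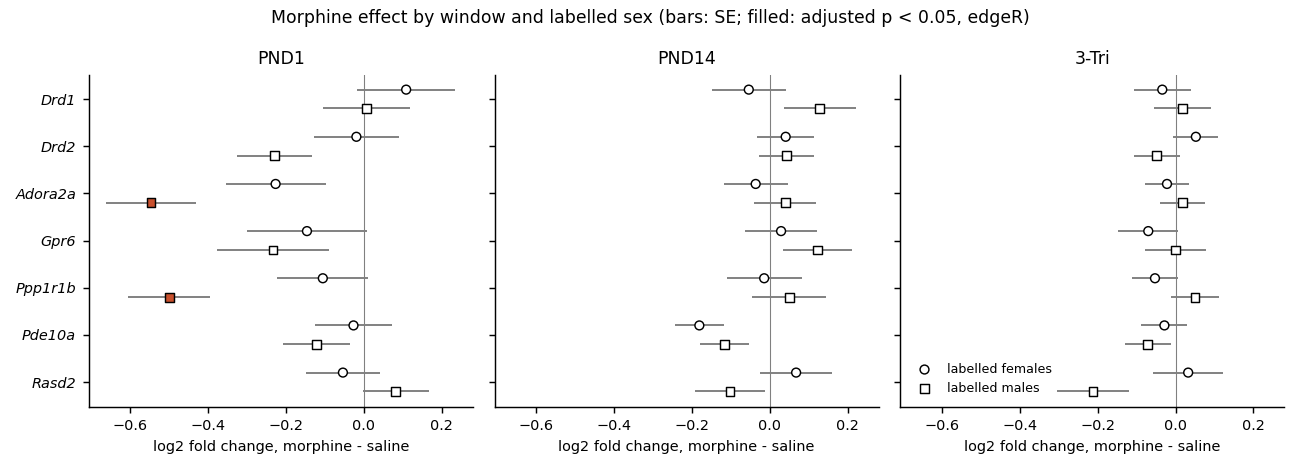
log2 fold change of morphine against saline for each member, by window, in labelled females (circles) and males (squares), with bars of 1 SE and filled marks where the adjusted p in edgeR was under 0.05. The filled marks are Adora2a (-0.55) and Ppp1r1b (-0.50) in PND1 males.

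Levels of some markers of other regions differed between the drug groups of PND1 males, with overlap. The summed level of 15 Hox genes of hindbrain and spinal cord had a median of 69.6 CPM (9.88 to 116.5) in the 6 morphine libraries, against 13.8 CPM (0.211 to 49.6) in the 7 saline libraries, with 3 of 15 called higher and none of the 15 at 0 throughout a group. In females it was 7.14 CPM (0.831 to 33.0) and 4.62 CPM (0.0390 to 61.3). The 10 cortical glutamatergic genes summed to a median of 898.8 CPM (760.6 to 1016.3) after morphine and 996.9 CPM (799.1 to 1066.6) after saline in males, with 2 called lower and 1 higher. In males the cerebellar list summed to a median of 105.0 CPM after morphine and 103.7 CPM after saline. The thalamus and midbrain list summed to 426.3 and 405.6 CPM. The median log2FC was -0.46 for 4 olfactory bulb genes (1 called lower), 0.46 for 8 hypothalamic genes (1 called higher) and -0.35 for 4 choroid plexus genes (0 called). Beside these counts, 14.4% of all genes tested were called in PND1 males. The part of these region markers in the result was not tested. With the Hox mean as a covariate, a choice made after seeing these levels, Adora2a had a log2FC of -0.40 (adjusted p = 0.0267) and Ppp1r1b of -0.42 (0.0257) in edgeR. With the cortical mean they had -0.43 (0.00405) and -0.39 (0.00429), and with the mean of the other striatal genes -0.44 (0.00576) and -0.39 (0.00545). Without a covariate they had -0.55 and -0.50. The Hox and cortical levels themselves differed between the drug groups, so these fits do not test the part of the regions.

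Of 24 other striatal genes tested in PND1 males, 1 was called higher and 2 lower, beside 14.4% of all genes called, and their median log2FC was -0.04, beside 0.01 for all genes and -0.23 for the members. The lower genes were Slc35d3 (log2FC -0.44 ± 0.110, adjusted p = 0.00962), a transporter gene that affects trafficking of the D1 receptor, and Sp9 (-0.26 ± 0.0721, adjusted p = 0.0178, edgeR). Scn4b had -0.45 ± 0.163 (adjusted p = 0.0590, edgeR), and Foxp1, a transcription factor of both classes, had 0.03 ± 0.0616 in males and 0.26 ± 0.0690 in females (adjusted p = 0.799 and 0.157, edgeR). Of 22 dopamine signalling genes tested, 3 were called higher and 4 lower, beside the same 14.4% of all genes. Among them Akt1 (-0.18 ± 0.0416) and Ppp1cc, a catalytic subunit of the phosphatase that DARPP-32 inhibits (-0.18 ± 0.0479), were lower, as was the kinase gene Csnk1d (-0.15 ± 0.0406), and Ppp3r1, the regulatory subunit of calcineurin, was higher (0.15 ± 0.0377).

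In PND14 no member was called in either sex or joined, where 0% of genes were called in females (2054 at an unadjusted p under 0.05), 0.280% in males and 1.69% joined. Pde10a came nearest. Its 6 female morphine libraries had a median of 187.1 CPM (168.9 to 203.9) against 225.0 CPM (180.1 to 229.8) in saline, and its male ones 201.3 CPM (187.9 to 243.5) against 228.2 CPM (206.4 to 234.6). Of the male morphine libraries, 4 of 6 were below the lowest male saline library, and 1, replicate 3, was above the highest. The joined log2FC was -0.15 ± 0.0447 (adjusted p = 0.0857, edgeR). It passed the threshold in DESeq2 (adjusted p = 0.0353), with the number that opens the sample ID as a random effect in limma (0.0408), without male morphine replicate 3 (0.0399) and without female saline replicate 12 (0.0304). The correlation within an ID number was estimated at -0.022 in PND14, and each number held pups of 1 drug only. The random effect therefore does not show that the call holds when shared litters are allowed for. The other 6 members had joined log2FC between -0.02 and 0.08.

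Among the other striatal genes of PND14 1 of 24 was called joined, Scn4b (-0.24 ± 0.0557, adjusted p = 0.0264, edgeR), and 0 of 22 dopamine signalling genes were called. In 3-Tri no member was called, where 0% of 19730 genes were called in each sex and joined by edgeR or DESeq2 and 963 joined had an unadjusted p under 0.05. Rasd2 in labelled males had the smallest p (log2FC -0.21 ± 0.0918, unadjusted p = 0.0288, adjusted p = 0.920, edgeR). That value includes saline replicate 1, which had 160.2 CPM of Rasd2 where the other 5 had 84.5 to 98.9 CPM, and without it the log2FC was -0.09. The remaining log2FC of 3-Tri by sex lay between -0.07 and 0.05.

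The difference between windows was tested in 1 fit of all 72 libraries, with the sexes joined. The morphine effect on Adora2a was lower in PND1 than in PND14 by 0.39 ± 0.0962 on the log2 scale (adjusted p = 0.00391, edgeR) and lower than in 3-Tri by 0.39 ± 0.0955 (0.00575). For Ppp1r1b the differences were 0.32 ± 0.0987 (0.0215) and 0.30 ± 0.0984 (0.0403). The background was 13.3% of genes called for PND1 against PND14 (7.25% lower) and 8.43% for PND1 against 3-Tri (4.58% lower). No member differed between PND14 and 3-Tri, where 0.182% of genes were called. With libraries of discordant sex genes left out, the difference from 3-Tri was -0.37 for Adora2a (adjusted p = 0.188) and -0.25 for Ppp1r1b (0.434), and that from PND14 was -0.30 for Ppp1r1b (0.0659), so these 3 were no longer called in edgeR.

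The ratio of Drd1 to Drd2 within a library set the direct against the indirect pathway receptor. In PND1 males the log2 ratio was -0.05 ± 0.07 (SD, n = 6) after morphine and -0.30 ± 0.33 (n = 7) after saline, a difference of 0.25 (exact permutation test, two-sided, p = 0.0886). In the other 5 sets it differed by -0.09 to 0.11. The adjusted p was 0.433 for each of the 6 (exact permutation tests). Every other pair of members was then treated the same way, a choice made after the fits had been seen, and none of the exact tests of 21 pairs in 6 sets had an adjusted p under 0.05. The smallest p values were in PND1 males, for Drd1 to Ppp1r1b (difference 0.50, exact p = 0.000583, the smallest this design allows) and Drd1 to Adora2a (0.56, exact p = 0.00117), each with an adjusted p of 0.0734. With 126 tests, 1 pair alone at the smallest possible p could not have been called. The lack of calls therefore does not decide whether a single pair differed. In females Drd1 to Adora2a differed by 0.33 (exact p = 0.00606, adjusted p = 0.157).

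Covariation of the members between libraries of a window was measured after the mean of each labelled group was removed. Pups of a window may share litters, and values of a library share its RNA, depth and scaling. Of 21 pairs, 17 had a positive r in PND1, 21 in PND14 and 15 in 3-Tri, with a median r of 0.40, 0.46 and 0.25. After permutation of libraries within groups and adjustment over 63 pairs, 6 pairs were called in PND1, 8 in PND14 and 1 in 3-Tri. Pairs of other genes were not counted in this way, so whether these counts are unusual for gene pairs here was not tested.

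Adora2a with Ppp1r1b was the pair called in all 3 windows. In PND14 it had r = 0.83 and rho = 0.83 (n = 24, permutation p = 1e-05, the smallest that 100000 resamples can give, adjusted p = 0.00063). Without the 2 libraries farthest from the median of Adora2a, r was 0.82. In every pair these 2 libraries were chosen by the member that comes first in the opening list. Extremes of the other member were not removed. In PND1 Adora2a with Ppp1r1b had r = 0.75 and rho = 0.78 (permutation p = 0.00016, adjusted p = 0.00252), and r = 0.71 without the 2 farthest. In 3-Tri, where no other pair was called, it had r = 0.56 and rho = 0.67 (permutation p = 0.00461, adjusted p = 0.0194), with r = 0.68 without the 2 farthest. That call was lost without male morphine replicate 2, male saline replicate 2 or female morphine replicate 11, and also with libraries of discordant sex genes left out, where Drd1 with Ppp1r1b and Drd2 with Rasd2 were called in its place.

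Drd1 varied with Adora2a (r = 0.75, rho = 0.80, r = 0.80 without the 2 farthest) and Ppp1r1b (r = 0.73, rho = 0.72, 0.64 without them) in PND1, with adjusted permutation p of 0.0022 and 0.00472. Drd1 with Drd2, the receptors of the separate neuron classes, had r = 0.31 in PND1 (rho = 0.40, adjusted permutation p = 0.301), 0.66 in PND14 (rho = 0.53, adjusted p = 0.0068, r = 0.55 without the 2 farthest) and 0.32 in 3-Tri (rho = 0.34, adjusted p = 0.22). By rho, Drd1 with Drd2 in PND14 had an adjusted permutation p of 0.0529 and was not called. Calls by rho numbered 6 in PND1, 7 in PND14 and 1 in 3-Tri. Among pairs called by r, the r without the 2 farthest libraries ran from 0.50 to 0.80 in PND1 and from 0.47 to 0.82 in PND14. Rasd2 was in no called pair, and its mean r with the other 6 members was -0.10 in PND1, 0.31 in PND14 and 0.00 in 3-Tri.

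**Figure D4:**
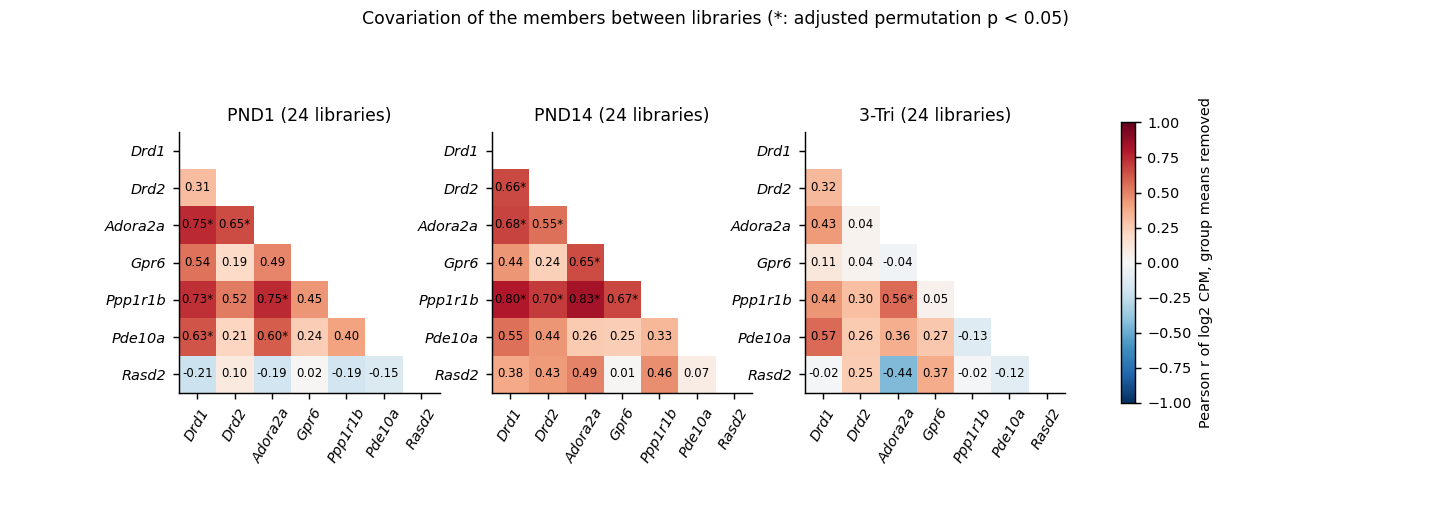
Pearson r of log2 CPM between each pair of members over the 24 libraries of a window, group means removed, with a star where the adjusted permutation p was under 0.05. Adora2a with Ppp1r1b has r of 0.75, 0.83 and 0.56 and is the pair with a star in all 3 windows, and the row of Rasd2 has no star.

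A single library stood apart in PND14. PND14 male morphine replicate 3, with 9516426 counts, was the highest of its group for 7 of 7 members, with 43.8 CPM of Drd1, 30.4 of Drd2 and 183.4 of Ppp1r1b, and the highest of the window for 6 of them. The summed level of the other striatal genes was also the highest of the window there, at 2339 CPM beside a median of 2100 CPM. Without it the median r of PND14 was 0.35, and the 8 pairs called remained called. Rasd2 was higher in shallower libraries of the later windows, and the part of depth in its values was not tested. Its r with log2 total counts was -0.75 in PND14 and -0.78 in 3-Tri, where the 2 shallowest libraries had its highest levels, 138.0 and 160.2 CPM. In PND1, where no library was shallow, that r was -0.28. Among the other members the largest r with log2 total counts were 0.73 for Adora2a in 3-Tri and 0.48 for Ppp1r1b in PND1. Saline libraries of PND1 males ran from 20742862 to 27004623 counts and morphine libraries from 21128229 to 22923686. The part of depth in these values was not tested either.

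To describe what else follows these genes, each protein-coding gene with at least 1 CPM on average in every window was compared with the mean of the 7 members, each scaled to its SD, in the 24 libraries of each window. Over 14222 genes the median r was 0.01 in PND1, 0.01 in PND14 and 0.02 in 3-Tri. Among the most alike were Ngef, an ephexin of the striatum and cortex, with r of 0.78, 0.73 and 0.50 in PND1, PND14 and 3-Tri, and Gng7, the G protein gamma subunit that couples D1 and adenosine receptors to adenylyl cyclase (0.89, 0.56 and 0.55). Adcy5, the main striatal adenylyl cyclase, had 0.73, 0.74 and 0.46. Others among the most alike were Smpd3, Crym, Mast3, Arpp21, Ptk2b, Sowaha, Camkv and Inf2, with mean r from 0.57 to 0.64. The lowest were Ebf3 (mean r -0.61), Slc17a6, the glutamate transporter of thalamic and midbrain neurons (-0.52), Efhd1, Nhlh2 and Timp3, all between -0.61 and -0.51. These r are descriptions, with no test, and genes of a library are not independent.

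Some striatal genes did not follow the members early. Penk, the enkephalin precursor of indirect pathway neurons, had r of -0.38 in PND1, 0.62 in PND14 and 0.53 in 3-Tri. Scn4b had -0.08, 0.75 and 0.53, and Pde1b, a calmodulin-dependent phosphodiesterase, 0.01, 0.79 and 0.29. Ebf1, a transcription factor of direct pathway neurons that other tissues also express, had -0.68, -0.05 and -0.04. These 4 were chosen for mention after their values were seen.

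The mean of the other striatal genes had r of 0.70, 0.83 and 0.59 with the member mean in PND1, PND14 and 3-Tri. The cortical glutamatergic list, led by Slc17a7 and Neurod6, had r of 0.70, 0.33 and 0.40. Lists of more caudal tissue ran the other way in PND1, with r of -0.69 for cerebellum, -0.58 for hindbrain and spinal cord and -0.40 for thalamus and midbrain. In PND14 these were -0.24, -0.19 and -0.17, and in 3-Tri -0.09, -0.17 and -0.41. Among single members of PND1, Adora2a had r of -0.62 with the Hox list and Rasd2 had -0.07. With the cortical and the other striatal list in PND1, Drd1 had r of 0.80 and 0.64 and Drd2 0.52 and 0.29. Adora2a had 0.70 and 0.59 and Ppp1r1b had 0.72 and 0.66. The r with the cortical list was the lower one for Pde10a (0.40 and 0.73), Gpr6 (0.28 and 0.33) and Rasd2 (-0.23 and -0.04). The Hox list summed to at most 1.71 CPM in any PND14 library and 1.17 CPM in any 3-Tri library, against up to 116.5 CPM in PND1. Genes of dopamine neurons, led by Nr4a2 and Slc18a2, had r of -0.38, 0.05 and -0.33. The remaining lists had r between -0.48 (choroid plexus, led by Ttr, in PND1) and 0.38 (dopamine signalling in PND14). How far the share of each region in a sample set these relations was not tested.

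**Figure D5:**
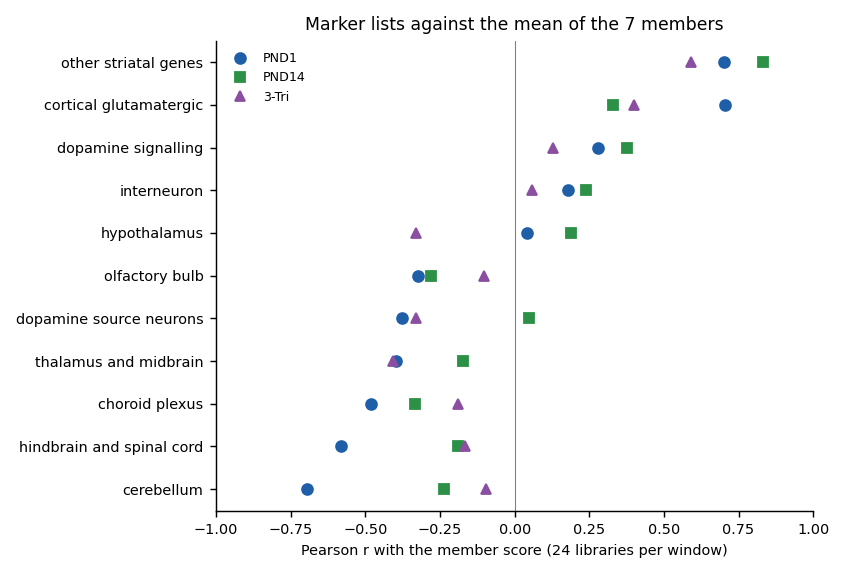
Pearson r, over the 24 libraries of each window with group means removed, between the mean of the 7 members and the mean log2 CPM of each marker list. The other striatal genes lie at 0.59 to 0.83. In PND1 the striatal and cortical lists both lie at 0.70, and the cerebellum and hindbrain lists lie at -0.69 and -0.58.

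Spread between libraries of a group differed by window. The biological coefficient of variation in edgeR was 8.94% (Rasd2) to 13.4% (Adora2a) in PND1, 6.77% (Drd2) to 11.5% (Ppp1r1b) in PND14 and 4.77% (Drd2) to 10.9% (Rasd2) in 3-Tri. In PND1 the members stood between percentile 60.8 (Rasd2) and 83.5 (Adora2a) of all genes by this measure. In PND14 they stood between percentile 44.6 (Drd2) and 78.8 (Ppp1r1b), and in 3-Tri between 32.3 (Drd2) and 82.7 (Rasd2), with Adora2a at 45.1.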

How the data were processed

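RNA-seq of the right hemisphere was analysed in 72 pups. The authors trimmed reads with Trim Galore 0.6.6, aligned them with HISAT2 2.2.1 to mm10, removed duplicates and counted genes with featureCounts 2.0.1. The counting strand is not given in the sources used here. The deposited values are raw counts per gene and library. The comparison tables hold fold changes and p-values, which were not used. Their mean signal (counts over size factors, deposited by the authors) served only to find which libraries they had included.

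Genes kept by filterByExpr (minimum count 10, minimum total count 15) were tested with TMM and the quasi-likelihood test of edgeR 4.0.16 in R 4.3.3, with the 4 groups of a window, or the 12 of the series, fitted together. Adjusted p-values are Benjamini-Hochberg over all genes tested, with 0.05 as threshold. limma 3.58.1 and DESeq2 1.42.0 served as alternatives. log2 CPM used a prior count of 2. Steps were tested on simulated data. Symbols and coordinates came from GENCODE M21, which named 55141 of 55401 genes. Correlations used 100000 permutations within groups, two-sided, and 20000 in alternatives. Genes were named by a rule: the members, the 12 genes most and the 5 least like them, and up to 4 genes of the striatal and dopamine lists with the smallest p. An item that this rule names is not reported here. Ratios of every pair, Hox and cortical covariates and leaving out libraries from correlations were added after seeing the data. Members and lists were chosen with earlier results of these data known. Replicates were single pups, and litters are not given, so p-values measure the spread between pups that may share a dam. Depth sets the counting error, so the 30 counts behind the lowest value allow less precision than the 4285 behind the highest. Some levels also followed depth, as Rasd2 did in PND14 and 3-Tri, and the part of depth in them was not tested. No library matched another of its group within counting noise (lowest chi-square per gene 1.64).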

Additional observations from a re-analysis of the deposited data

Results flagged for a closer look

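Adora2a and Ppp1r1b were flagged because their morphine effect differed between windows when the difference itself was tested in edgeR. For Adora2a it was -0.389 (SE 0.0962, adjusted p = 0.00391) between PND1 and PND14 and -0.389 (SE 0.0955, adjusted p = 0.00575) between PND1 and 3-Tri. For Ppp1r1b it was -0.319 (SE 0.0987, adjusted p = 0.0215) and -0.302 (SE 0.0984, adjusted p = 0.0403).

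Among 84 groups of member values, 9 had a library far from the rest of its group, and about 1 in 20 would by chance. In PND14 male morphine replicate 3 these were Drd1 at 43.8 CPM (others 26.7 to 32.5), Drd2 at 30.4 CPM (22.6 to 25.3) and Ppp1r1b at 183 CPM (117.5 to 142.0). In the shallowest libraries they were Rasd2 at 138 CPM in PND14 female morphine replicate 4 (others 78.3 to 98.0), Rasd2 at 160 CPM in 3-Tri male saline replicate 1 (84.5 to 98.9) and Drd2 at 25.3 CPM in the same library (23.6 to 24.1). The others were Drd1 at 11 CPM in PND1 female saline replicate 4 (7.77 to 8.66), Drd1 at 33.1 CPM in 3-Tri male saline replicate 2 (26.4 to 28.6) and Pde10a at 86.1 CPM in PND1 male morphine replicate 5 (116.9 to 129.5).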

How the results depend on the processing

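The count of members called kept its value under most alternatives. Under the replicate block combined with correction for GC and length, 0 members were called in PND1 males and 1 joined. The log2FC in males was then -0.43 for Adora2a (adjusted p = 0.220) and -0.47 for Ppp1r1b (0.0680, edgeR). With the correction alone, 0 were called joined. With the replicate block alone, Adora2a and Ppp1r1b in PND1 males had log2FC of -0.66 and -0.64 (adjusted p = 0.0350 and 0.0139, edgeR). Same-numbered libraries deviated with r of -0.22 to 0.21 over all genes, so the numbers do not pair the pups. Joined PND14 gave 1 member (Pde10a) in DESeq2 and 1 with the ID number as a random effect. Without the libraries whose sex genes go against the label, 1 member was called for PND1 against PND14 and 0 for PND1 against 3-Tri, and without a filter on low counts 1 for the latter. Leaving out each library gave 2 to 3 members in PND1 males, 2 joined, 0 to 1 in PND14 joined and 0 in the other morphine comparisons. Pairs called, which were 6, 8 and 1, ran from 6 to 8 in PND1, 6 to 11 in PND14 and 0 to 2 in 3-Tri. In 3-Tri they were 2 without TMM, 2 without the libraries against the sex label and 3 with ID number means removed. The cause was not tested. Depth limits Gpr6 most, and a 3-Tri saline library of 3113919 counts limits Rasd2.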
